A study of Mus musculus with 6 samples.

Results

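The Hedgehog pathway was read through 9 genes of presomitic mesoderm, the tail-end tissue of the mouse embryo that is later cut into somites. They were the ligand gene Shh, the receptor and binding protein genes Ptch1, Smo, Hhip and Boc, the transcription factor genes Gli1, Gli2 and Gli3, and Gas2. Each was taken from the probe set of the array whose platform annotation names that gene and no other, and each had 1 such probe set, so 9 of 15153 genes were followed. The arrays covered 3 control and 3 mutant pools, and each pool joined 3 presomitic mesoderms dissected at embryonic day 9.5 from embryos of 17 to 19 somites. Control embryos carried Taf10Flox/+ or Taf10flox/flox and are labelled WT, without word of which of these genotypes went into which pool. Mutant embryos were TCre/+;Taf10flox/flox, so Cre recombinase under control of T (Brachyury), a gene of the primitive streak and early mesoderm, deleted Taf10, which encodes a subunit of the general factor TFIID and of the coactivator SAGA. The comparison asks how the pathway's transcripts differ in this tissue when Taf10 is deleted.

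Hedgehog ligands are secreted signals. In the trunk of the embryo Sonic hedgehog comes from the notochord, the floor plate of the neural tube and the gut endoderm, and it patterns the ventral neural tube and the ventral part of the somite that becomes sclerotome. The ligand binds Patched, which otherwise holds the membrane protein Smoothened inactive, and active Smoothened in the primary cilium turns Gli proteins from repressors into activators. Gli1, Ptch1 and Hhip are themselves transcribed in response to the signal, and serve as its readouts.

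The arrays had median intensities of 307.9 to 317.5. Mutant 3 stood apart, with a root mean square distance of 0.184 log2 units from its group mean against 0.0762 to 0.112 for the other arrays. Xist, transcribed from the inactive X chromosome of female cells, had a log2 level of 6.32 in control 3 and of 11.35 to 12.57 in the others, so the sexes were not balanced over the pools. The probe set 10365288, annotated to Taf10, was lower in the mutants (log2 -0.37, SE 0.08, limma adjusted p = 0.0400), and the other, 10566525, did not pass (log2 0.11, SE 0.10, limma adjusted p = 0.530). Of 11 measured presomitic genes Tbx6 (log2 0.63, SE 0.09) and Hes7 (log2 0.52, SE 0.07) rose, with limma adjusted p-values of 0.0129 and 0.00758. Cyp26a1 (log2 -0.74, SE 0.08) and Rspo3 (log2 -0.74, SE 0.11) fell, with limma adjusted p-values of 0.00643 and 0.0127. Over all genes 5.92% were called at an adjusted p under 0.05. The summed intensity of the presomitic list was 24136 to 25053 in controls and 27253 to 29383 in mutants. The sum is led by its brightest probe sets: the median change of the list was -0.01, with 5 genes above and 6 below 0, and the pool medians were 0.17, -0.14 and 0.10 in mutants 1 to 3. Tbx6 and Msgn1, which mark presomitic mesoderm, had log2 levels of 11.90 to 12.77 and 12.02 to 12.71 over the 6 pools.

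None of the Hedgehog genes passed the test: 0 of 9 rose and 0 of 9 fell at a limma adjusted p under 0.05, where 5.92% of all genes were called, 2.96% higher and 2.96% lower. With the p unadjusted, 3 were higher (Ptch1, Gli1 and Gas2) and 1 lower (Boc) by limma at 0.05, against 22.7% of all genes in either direction. In the same 4 genes the mutant and control values did not overlap, which was true of 32.3% of all genes. Changes, always mutant minus control on the log2 scale, ran from -0.30 for Boc to 0.22 for Gas2, with a median of 0.05 against 0.03 over all genes. The 95% intervals, which are not adjusted for the number of genes, reached from 67.3% of control for Boc to 1.33-fold for Gas2. In tissue RNA, a smaller number of expressing cells and less RNA in each cell cannot be told apart.

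**Figure D1:**
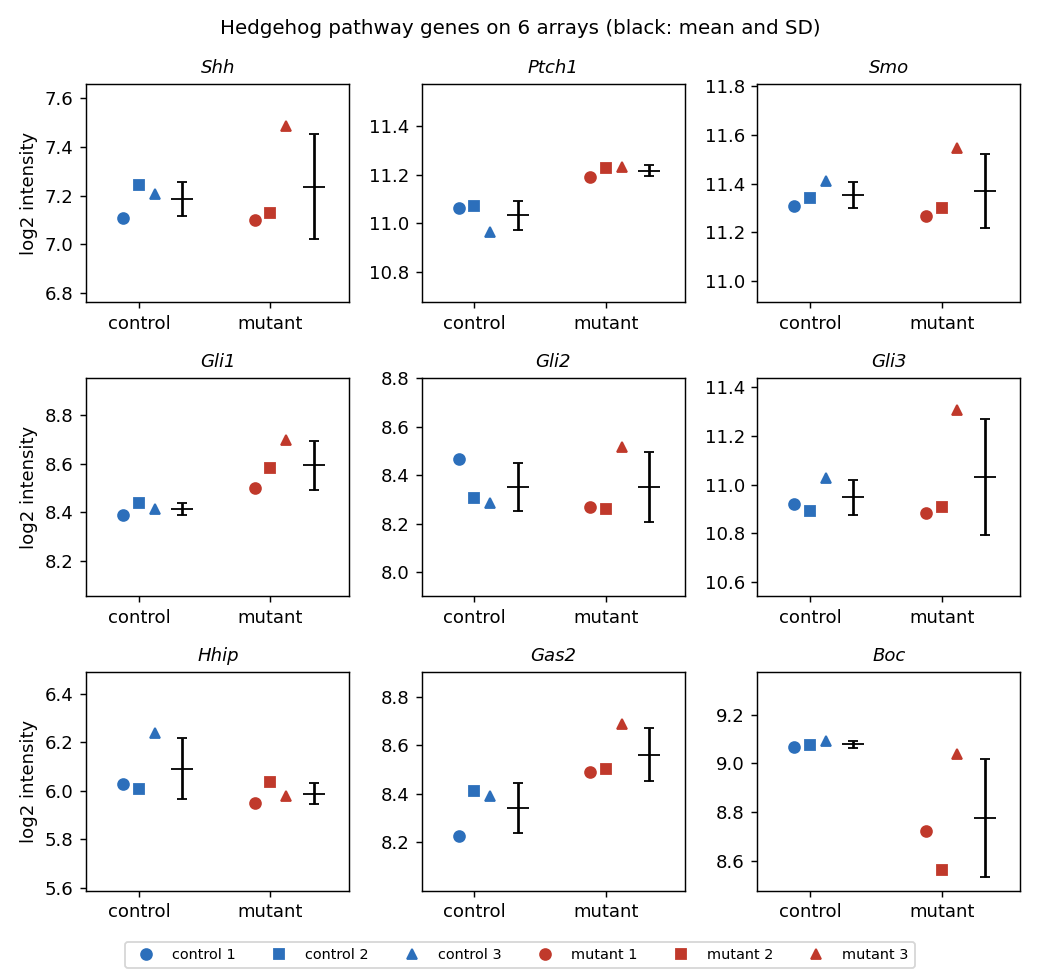
Log2 intensity (y axis, the same span in every panel) of the 9 Hedgehog genes on the 3 control (blue) and 3 mutant (red) arrays, with the mean and SD of each group in black. Ptch1, Gli1 and Gas2 have all mutant points above the controls, Boc has all below, and mutant 3 (red triangle) lies highest of the mutants in 8 of the 9 panels.

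Shh, the ligand gene, did not differ between the genotypes beyond the spread of the pools. Its log2 level was 7.11, 7.24 and 7.20 in controls 1 to 3 and 7.10, 7.13 and 7.49 in mutants 1 to 3. Mutant 1 was just under the lowest control, mutant 2 lay between the controls, and mutant 3 was the highest array. The genotypes differed by 0.05 (SE 0.11, limma adjusted p = 0.800), with a 95% interval of 0.870-fold to 1.24-fold. The genes of the other ligands did not pass either, with log2 changes of 0.01 (SE 0.09) for Ihh, which acts in gut and cartilage, and -0.01 (SE 0.07) for Dhh, which acts in gonads and nerve sheaths. Of 6 genes for ligand processing and release 0 passed limma, adjusted or unadjusted, where 5.92% and 22.7% of all genes did. Scube3 (log2 0.19, SE 0.11), Scube1 (log2 0.15, SE 0.09) and Scube2 (log2 0.09, SE 0.09) encode secreted proteins that help ligand leave the cell. Hhat, the acyltransferase that adds palmitate to the ligand, had a change of 0.01 (SE 0.06), and Disp1 and Disp2, of the Dispatched family of ligand release, of -0.02 (SE 0.12) and -0.01 (SE 0.09). The second probe set of Disp1 gave -0.09 (SE 0.08).

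Ptch1, the receptor gene that the signal itself induces, had the smallest p of the 9. Its log2 level was 11.06, 11.07 and 10.96 in controls 1 to 3 and 11.19, 11.23 and 11.23 in mutants 1 to 3. Every mutant pool lay above every control pool. The difference was 0.18 (SE 0.06), or 1.14-fold with a 95% interval of 1.03 to 1.26, and it missed the threshold (limma adjusted p = 0.133). By the exact two-sided permutation test p was 0.1, the lower limit with 3 pools in each group.

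The window from 250 bases before to 50 bases after the annotated start of Ptch1 (RefSeq, GRCm38.p6, minus strand, chr13:63565686-63565985) is shown because Ptch1 is the textbook target of Gli proteins and had the smallest p. Capitals mark the bases after the start.
Ptch1: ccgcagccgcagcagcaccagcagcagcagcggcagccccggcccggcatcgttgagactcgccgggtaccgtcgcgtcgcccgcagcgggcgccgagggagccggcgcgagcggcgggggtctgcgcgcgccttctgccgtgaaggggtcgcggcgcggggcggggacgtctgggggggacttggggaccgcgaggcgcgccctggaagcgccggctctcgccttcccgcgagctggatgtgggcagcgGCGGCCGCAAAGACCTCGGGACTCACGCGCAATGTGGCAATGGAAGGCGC
The Gli consensus GACCACCCA, searched on both strands (TGGGTGGTC on the other), has no match there. RefSeq windows were matched for 6 of the 9 genes (Ptch1, Smo, Hhip, Gli2, Gli3 and Gas2, 7 windows in all). Of the 7 windows 0 held the motif, as against 0.253% of all 32851 windows. At so low a share 7 windows are too few to tell these genes from the rest. With 1 mismatch allowed, 1 of the 7, a window of Gas2, held a match, against 6.74% of all windows. These matches describe letters in short windows and say nothing of Gli binding elsewhere.

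Smo encodes Smoothened, the membrane protein that passes the signal on. Its log2 level was 11.31, 11.34 and 11.41 in controls 1 to 3 and 11.27, 11.30 and 11.55 in mutants 1 to 3. Mutants 1 and 2 were the lowest arrays and mutant 3 the highest, and the change was 0.02 (SE 0.09, limma adjusted p = 0.927, 95% interval 0.878-fold to 1.16-fold).

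Hhip, a membrane protein that binds ligand and dampens the signal, and that the signal induces, gave log2 levels of 6.03, 6.01 and 6.24 in controls 1 to 3 and 5.95, 6.03 and 5.98 in mutants 1 to 3. The groups overlapped, and control 3 was the highest array. The change was -0.10 (SE 0.08, limma adjusted p = 0.473), opposite in sign to those of the other induced genes Ptch1 and Gli1, and its interval, 0.820-fold to 1.06-fold, spans no change. Hhip and Shh were the 2 genes of the 9 below the log2 level of 7.70 that marks the 40th percentile of probe set means, and how far either lies above background is not known from these values.

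Boc encodes a cell surface co-receptor that binds ligand together with Patched. Its log2 level was 9.07, 9.08 and 9.09 in controls 1 to 3, and 8.72, 8.56 and 9.04 in mutants 1 to 3. The controls were nearly equal (SD 0.01), mutants 1 and 2 were clearly lower, and mutant 3 was just under the lowest control. The change over all pools was -0.30 (SE 0.12), or 81.0% of control, and it missed the threshold (limma adjusted p = 0.167, exact permutation p = 0.1). Without mutant 3 it was -0.44 (SE 0.06) and passed (limma adjusted p = 0.00562), in a fit that called 12.8% of all genes, and without mutant 2 it was -0.20 (SE 0.10, limma adjusted p = 0.326). Boc was the only one of the 9 whose call changed when an array was left out.

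Gas1, another co-receptor, is not among the 9 genes, and Gas2, which is, encodes a protein of the cytoskeleton that shares its name as a growth arrest gene and not its role at the membrane. Gas2 gave log2 levels of 8.23, 8.41 and 8.39 in controls 1 to 3 and 8.49, 8.50 and 8.69 in mutants 1 to 3. All mutants lay above all controls, with control 1 lowest and mutant 3 highest. The change was 0.22 (SE 0.08), or 1.16-fold with an interval of 1.02 to 1.33 (limma adjusted p = 0.175, exact permutation p = 0.1). Gas1 gave 9.48, 9.53 and 9.53 in controls and 9.60, 9.68 and 9.67 in mutants, again without overlap. Its change was 0.14 (SE 0.06, limma adjusted p = 0.228). Lrp2, an endocytic receptor that binds ligand, gave a change of 0.08 (SE 0.09). No receptor or binding protein gene of the 6 measured passed limma, where 5.92% of all genes did. At an unadjusted p under 0.05, 1 was higher and 1 lower, against 22.7% of all genes in either direction. Cdon, a close relative of Boc, was not analysed here.

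Gli1, an activator whose transcript depends on the signal, gave log2 levels of 8.39, 8.44 and 8.41 in controls 1 to 3 and 8.50, 8.58 and 8.70 in mutants 1 to 3. The mutants were all above the controls, and they spread more widely (SD 0.10 against 0.03). The change was 0.18 (SE 0.07), or 1.13-fold with an interval of 1.01 to 1.27, and it missed the threshold (limma adjusted p = 0.186, exact permutation p = 0.1). Left-out arrays moved it between 0.13 (without mutant 3) and 0.23 (without mutant 1).

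Gli2, the main activator at the start of the response, and Gli3, the main repressor, showed no difference that exceeded the spread of the pools. Gli2 gave 8.46, 8.31 and 8.28 in controls 1 to 3 and 8.27, 8.26 and 8.52 in mutants 1 to 3 (log2 change -0.0025, SE 0.09, limma adjusted p = 0.989, 95% interval 0.862-fold to 1.16-fold). Gli3 gave 10.92, 10.89 and 11.03 in controls and 10.88, 10.91 and 11.31 in mutants (log2 change 0.09, SE 0.12, limma adjusted p = 0.690, interval 0.880-fold to 1.28-fold). In both, mutant 1 was below all controls and mutant 3 was the highest array, while mutant 2 was below all controls for Gli2 and between them for Gli3. The transcript levels do not show how much Gli protein is cleaved to repressor.

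Mutant 3 was the highest of the mutant pools in 8 of the 9 genes, Hhip apart, and the highest of all 6 arrays in 7 of 9, against 55.5% and 43.8% of all genes. Without it the changes of Shh, Smo, Gli2 and Gli3 were -0.07, -0.07, -0.09 and -0.05, while those of Ptch1, Gli1 and Gas2 were 0.18, 0.13 and 0.15. Shh, Smo and Gli3 therefore changed sign without that pool, Gli2 was below 0 with and without it, and Ptch1, Gli1 and Gas2 stayed above 0. In mutant 3 the median difference of the 9 genes from the control mean was 0.20, and it was -0.08 in mutant 1 and -0.06 in mutant 2.

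**Figure D2:**
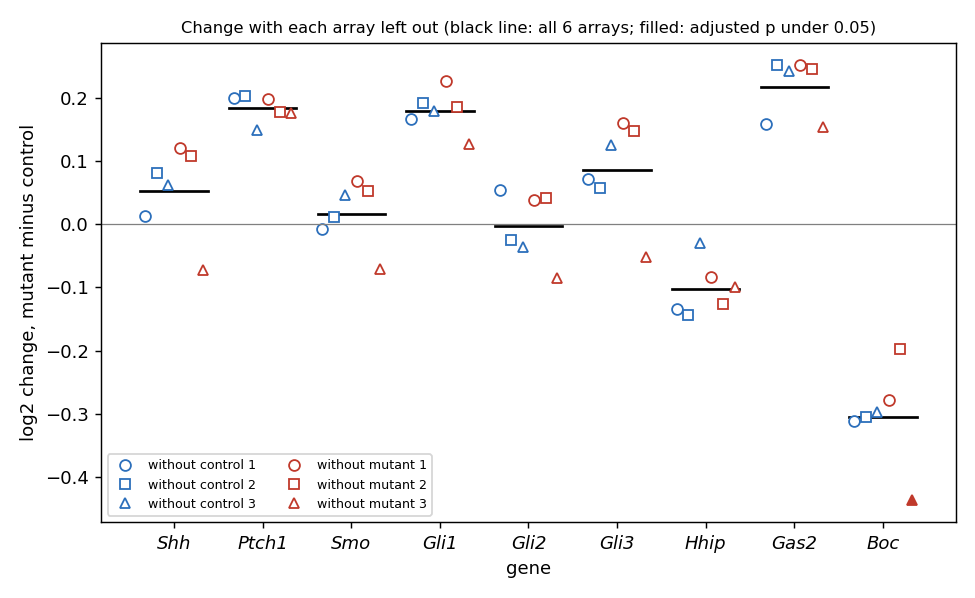
Log2 change of each of the 9 Hedgehog genes (y axis) with all arrays (black line) and with 1 array left out (symbols, coloured by the genotype of that array); a filled symbol has an adjusted p under 0.05. Boc without mutant 3, at -0.44, is the only filled symbol, and leaving out mutant 3 puts Shh, Smo and Gli3 below 0.

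Around these genes the wider pathway was read from 6 lists by role, in which 65 of 70 genes were measured. Of the 65, Stk36 and Ofd1 rose and Sfrp2 fell, which is 3 genes where 5.92% of all genes were called. Their median change was 0.05. The counts of 2 higher and 1 lower moved with the arrays used. They were 0 and 0 without control 1, control 2, control 3 or mutant 1, 0 and 1 without mutant 2 (Spop, while Sfrp2 was lost at a limma adjusted p of 0.0539), and 7 and 3 without mutant 3. Of all genes, 0.271%, 0.442% and 2.13% were called without controls 1 to 3, and 3.1%, 2.34% and 12.8% without mutants 1 to 3.

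Among 15 measured Gli factors and regulators 1 rose, Stk36, and 0 fell, where 2.96% of all genes were called in each direction. Stk36 encodes a kinase named after the fly gene fused, which relays the Hedgehog signal in flies, and in mice it is needed for motile cilia. It gave log2 levels of 7.95, 8.01 and 8.05 in controls 1 to 3 and 8.26, 8.34 and 8.41 in mutants 1 to 3, without overlap, and rose 1.26-fold (log2 0.33, SE 0.07, limma adjusted p = 0.0339). Spop, the adaptor of a ubiquitin ligase that marks Gli2 and Gli3 for breakdown, gave 9.62, 9.69 and 9.55 in controls and 9.07, 9.28 and 8.63 in mutants. Its mutants were all lower, mutant 3 most, yet the change of -0.63 (SE 0.15) just missed the threshold (limma adjusted p = 0.0503). Gpr161, a ciliary receptor that restrains the pathway, had a change of -0.16 (SE 0.07, limma adjusted p = 0.213). Sufu, which holds Gli proteins in the cytoplasm, and Kif7, a ciliary kinesin that acts with them, gave 0.07 (SE 0.08) and 0.08 (SE 0.06), and the second probe set of Kif7 gave 0.20 (SE 0.08, limma adjusted p = 0.179). Over the list the median change was 0.0020. At an unadjusted p under 0.05, 2 of the list were higher and 2 lower, against 22.7% of all genes in either direction.

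Genes of the primary cilium, where the signal is relayed, had a median change of 0.14 over the 18 measured, against 0.03 over all genes, and 8 of them had all mutants above all controls, where 17.2% of all genes did. By pool, the median difference from the control mean was 0.16 in mutants 1 and 2 and -0.0058 in mutant 3, within the range of the controls (-0.016 to 0.020). Of the 18, Ofd1 alone passed, where 5.92% of all genes did. Ofd1 is a gene of the centriole and basal body on the X chromosome. It gave 7.90, 8.09 and 7.87 in controls 1 to 3 and 8.54, 8.49 and 8.28 in mutants 1 to 3, and rose 1.40-fold (log2 0.48, SE 0.10, limma adjusted p = 0.0292). With the level of Xist, which was low in control 3, as a covariate, neither Ofd1 (log2 0.44, SE 0.10, limma adjusted p = 0.0743) nor Stk36 (log2 0.36, SE 0.08, limma adjusted p = 0.0572) passed, though the changes were of about the same size, and 3.39% of all genes were called. Ift20 (log2 0.55, SE 0.15), Ift52 (log2 0.22, SE 0.06), Ift122 (log2 0.25, SE 0.07) and Ift80 (log2 0.36, SE 0.10), parts of the particles that carry cargo along the cilium, missed the threshold with limma adjusted p-values of 0.0805, 0.0811, 0.0880 and 0.0886. Ift20 stood at 11.23 to 11.31 in controls, at 11.63 and 11.62 in mutants 1 and 2, and at 12.22 in mutant 3.

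Of 20 measured downstream targets, a list that holds Ptch1, Gli1 and Hhip with genes of the ventral neural tube, the sclerotome, the gut mesoderm and the cell cycle, Sfrp2 fell and 0 rose. Over all genes 2.96% were called lower and 2.96% higher. Sfrp2, a secreted inhibitor of Wnt signalling that Sonic hedgehog can induce in somites, gave 10.41, 10.23 and 10.32 in controls 1 to 3 and 9.93, 9.94 and 9.63 in mutants 1 to 3. It fell to 71.3% of control (log2 -0.49, SE 0.10, limma adjusted p = 0.0334), and with the level of Xist as a covariate the change was -0.51 (SE 0.12) and missed the threshold (limma adjusted p = 0.0700). The sclerotome genes Pax1 (log2 0.13, SE 0.07), Pax9 (log2 -0.0027, SE 0.08) and Nkx3-2 (log2 0.08, SE 0.07) did not pass. Nor did Nkx2-2, Olig2 and Foxa2 of the ventral neural tube, with changes of 0.02 (SE 0.15), -0.0017 (SE 0.07) and -0.05 (SE 0.08). Nkx6-1 and Nkx2-9, of the same region, gave 0.08 (SE 0.10) and 0.40 (SE 0.18, limma adjusted p = 0.241). The change of Nkx2-9 was the largest rise of the list, and its groups overlapped, with mutant 3 highest at 7.99. Myf5, a myogenic factor, gave 0.21 (SE 0.08, limma adjusted p = 0.163) with no overlap, which was true of 32.3% of all genes. Ccnd1, a G1 cyclin, gave -0.02 (SE 0.07). The median change of the list was 0.06.

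**Figure D3:**
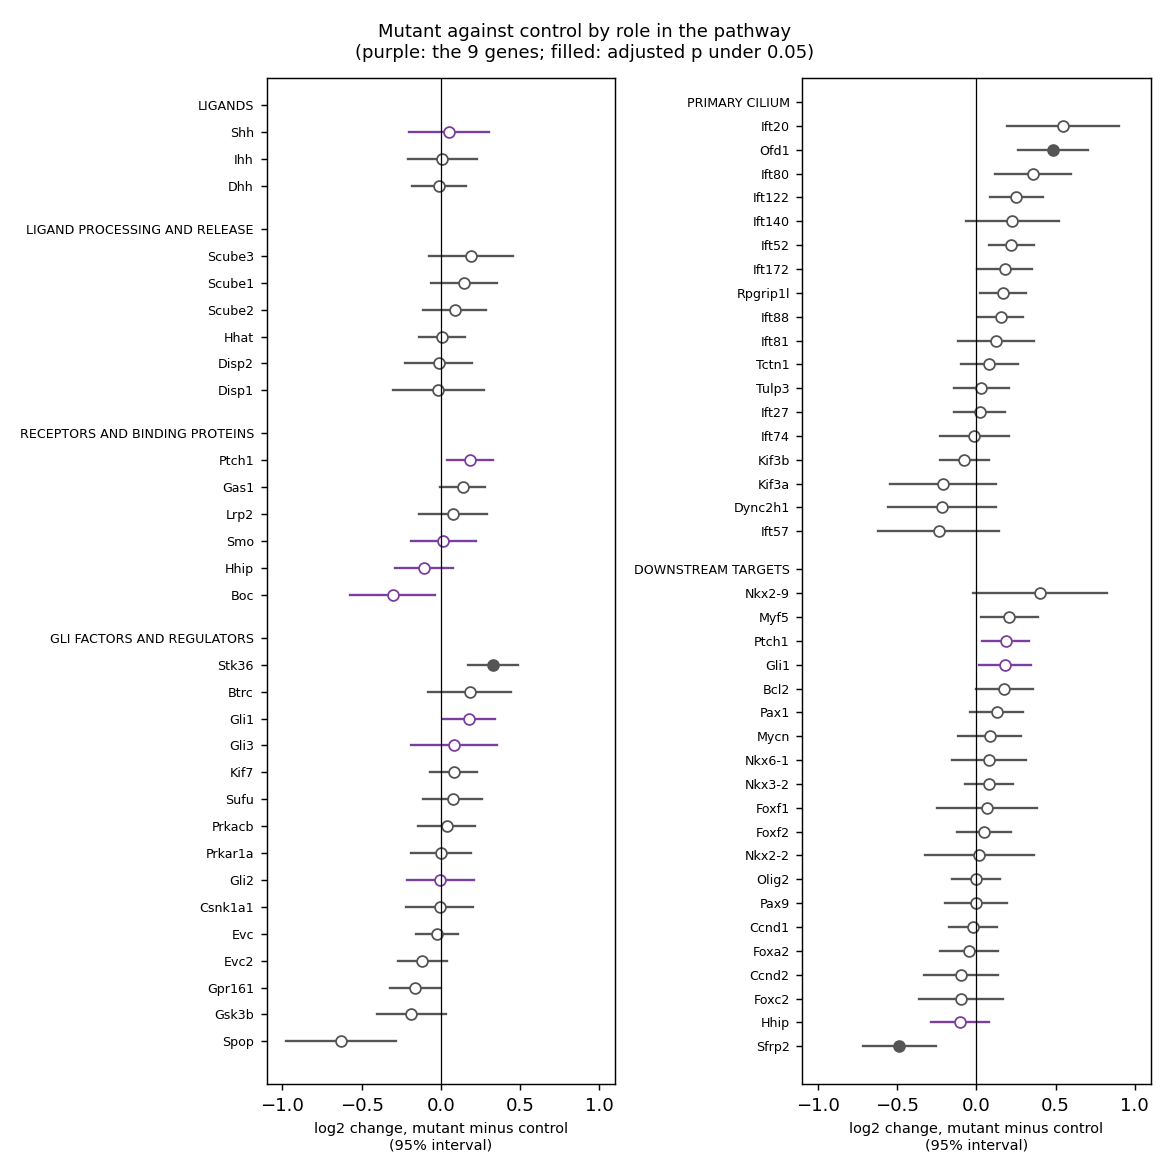
Log2 change, mutant minus control, with its 95% interval (x axis) for the 65 measured pathway genes, grouped by role (Ptch1, Gli1 and Hhip stand under both headings that hold them). Purple marks the 9 Hedgehog genes except Gas2, which is in no role list. Filled points have an adjusted p under 0.05, which Stk36 (0.33), Ofd1 (0.48) and Sfrp2 (-0.49) reach.

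Tissues that make Sonic hedgehog, and that a dissected presomitic mesoderm can carry along, were followed by their markers. Of 7 measured notochord markers 0 passed limma, with Sox9 at an unadjusted p under 0.05, and their summed intensity was 1050 to 1142 in controls and 1110 to 1264 in mutants. Noto, a transcription factor of the notochord, gave a log2 change of 0.07 (SE 0.08), Foxj1, of motile cilia, 0.14 (SE 0.09), and Foxa2, of notochord, floor plate and endoderm, -0.05 (SE 0.08). Of 5 floor plate markers 0 passed (0 at an unadjusted p under 0.05), with sums of 1470 to 1570 in controls and 1261 to 1624 in mutants. Of 10 gut endoderm markers 0 passed (0 at an unadjusted p under 0.05), with sums of 1963 to 2158 in controls and 1941 to 2189 in mutants. Over all genes 5.92% passed and 22.7% had an unadjusted p under 0.05. Foxa3, of the endoderm, had a change of 0.08 (SE 0.09). Shh belongs to all of these lists. In mutant 3, where Shh was highest, 5 of the 7 notochord markers, Shh included, were the highest of the 6 arrays, where 43.8% of all genes were. Noto, Chrd and Foxj1 were among them, at 6.98, 7.40 and 6.57, while Foxa2 was highest in control 3 and Sox9 in mutant 2. Mutant 3 was also highest in 3 of 5 floor plate, 6 of 9 neural tube and 5 of 8 formed somite markers. It was highest in 12 of 20 downstream targets. Counts were 3 of 10 for gut endoderm, 4 of 11 for presomitic mesoderm and 2 of 7 for surface ectoderm. They were 3 of 8 for lateral and intermediate mesoderm, 0 of 6 for endothelium and 0 of 4 for primitive blood. The part of the ligand-making tissues in the level of Shh was not tested.

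**Figure D4:**
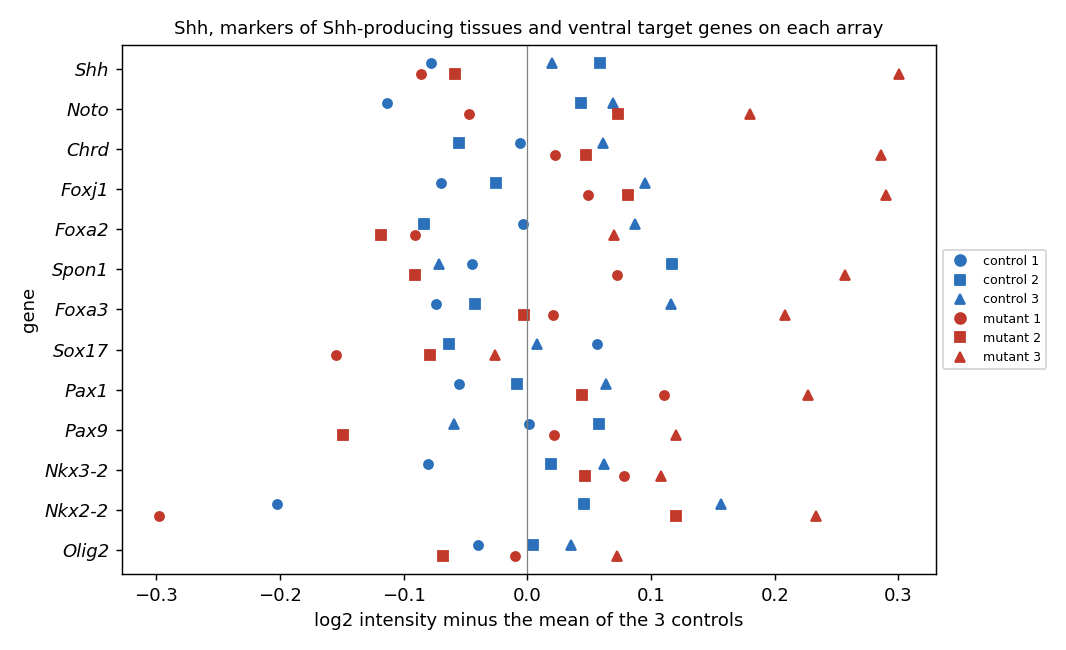
Log2 intensity minus the mean of the controls (x axis) of Shh, markers of notochord, floor plate and endoderm, and genes of the sclerotome and ventral neural tube, on each control (blue) and mutant (red) array. Mutant 3 (red triangle) is rightmost for every gene shown except Foxa2 and Sox17. The genes shown are a choice from the lists. Over the full lists mutant 3 was highest in 5 of 7 notochord, 3 of 5 floor plate and 3 of 10 gut endoderm markers. It was highest in 12 of 20 downstream targets and in 43.8% of all genes. Mutants 1 and 2 lie among or near the controls for Shh, Noto, Chrd and Foxj1.

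Of the markers of other tissues, limma called 0 of 9 for neural tube, 0 of 7 for surface ectoderm, 0 of 8 for formed somites, 0 of 6 for endothelium and 0 of 4 for primitive blood, with 1, 1, 3, 0 and 0 at an unadjusted p under 0.05. Of 8 for lateral and intermediate mesoderm, Lhx1 rose (log2 1.05, SE 0.07, limma adjusted p = 0.00158). Over all genes 5.92% were called and 22.7% had an unadjusted p under 0.05. The blood markers summed to 9080 to 22089 in controls and to 3756 in mutant 3, against 16361 and 14455 in mutants 1 and 2, and the endothelial markers to 671 to 1911 in controls and 549 to 1280 in mutants. Their part in the values of the Hedgehog genes was not tested.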

How the data were processed

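Expression was measured on arrays in 3 control and 3 mutant pools. The deposited intensity values were made with RMA, per the submitters' processing notes, a method that corrects background, normalizes arrays and joins probes into probe sets. Its version and any filter are not given in those notes. They are linear, from 20.5 to 21070, and log2 was taken without another normalization or filter. Of 18064 probe sets 16311 had 1 gene symbol, 734 several and 1019 none. The 16311 entered 1 linear model per probe set (limma 3.58.1, R 4.3.3, with eBayes and no covariate), and p-values were adjusted over all of them (Benjamini-Hochberg, called under 0.05). The brightest probe set stood for a gene, giving 15153 genes. The fit was tested on simulated data with independent errors and with changes larger than any Hedgehog gene showed. Recovery of changes as small as theirs was not tested.

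The 9 genes, the role lists and the marker lists were chosen with earlier results of these data known, from textbook roles. The text names the 9 genes, list genes that were called, up to 4 per role list by p, all genes of lists of 8 or fewer, and tissue markers; Sufu, Kif7, Ift80, the sclerotome and neural tube genes, Ccnd1, Msgn1 and Chrd were added after their values were seen. Promoter windows came from RefSeq (GRCm38.p6).

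The labels call the pools biological replicates. The p-values set the difference between genotypes against the spread of pools within each genotype, which eBayes draws toward a value shared by all probe sets. The number of arrays limits the precision. Alternatives were array weights, eBayes with a trend or robust, all probe sets, a level filter (40th percentile), median centring, quantile normalization, a replicate block, the mean over probe sets, Xist as a covariate, a threshold of 0.1, and each array left out.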

Additional observations from a re-analysis of the deposited data

How the results depend on the processing

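Of the 9 Hedgehog genes, array weights called 1 higher (Ptch1, log2 0.18, limma adjusted p = 0.0197) and 1 lower (Boc, log2 -0.47, limma adjusted p = 0.000644); every other alternative on all 6 arrays called 0 in each direction, and leaving out 1 array gave 0 higher and 0 to 1 lower. Those weights were 0.125 for mutant 3, 4.73 for mutant 2 and 0.773 to 1.82 for the other arrays. The setting thus rests little on mutant 3 and, among the mutants, mostly on mutant 2, whereas leaving mutant 3 out counts mutants 1 and 2 alike. Array weights called 23.8% of all genes, against 5.92% in the main fit and 12.8% without mutant 3. Without mutant 3, Ptch1 did not pass (limma adjusted p = 0.0893). Signs turned for Shh (-0.0025 after quantile normalization, -0.075 with array weights, -0.072 to 0.12 with 1 array left out), Smo (-0.057 with array weights, -0.072 to 0.069 with 1 left out), Gli2 (0.0027 after quantile normalization, -0.086 to 0.054 with 1 left out) and Gli3 (-0.024 with array weights, -0.052 to 0.16 with 1 left out), none of them called; the cause was not tested. Ptch1, Gli1, Gas2, Hhip and Boc kept their signs in every alternative run, and the level filter left Shh and Hhip without a value. Of the wider pathway, 14 rose and 4 fell with array weights, 0 and 0 with Xist as a covariate, 6 and 2 at an adjusted p under 0.1, and 0 to 7 and 0 to 3 with 1 array left out. The count that fell was 2 with the replicate block, median centring, the level filter and the mean over probe sets. Spop then joined Sfrp2 (limma adjusted p = 0.0262 for Spop with the replicate block). Of all genes, 11.3% were called at the 0.1 threshold and 3.39% with Xist as a covariate. Median centring called 5.92% of them, the mean over probe sets 6.51%, and the level filter 10% of the 8921 it kept. The labels do not say that equal replicate numbers share a litter or day, and deviations of equal numbers correlated at 0.13, 0.08 and 0.32, with control 1 and control 2 correlating best with another number; the replicate block called 7.15% of all genes and no Hedgehog gene. Signal over background is not given, so for dim probe sets the intervals bound signal rather than RNA.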

Other observations

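Within the cilium list, mutant 3 differed from the other mutants in opposite directions, in genes chosen after their values were seen. Kif3a, a motor of transport into the cilium, had a log2 level of 8.52 in mutants 1 and 2 and of 7.96 in mutant 3, Ift57 of 7.55 and 7.57 against 6.90, and Dync2h1, the motor of return transport, of 9.25 and 9.29 against 8.72. Their controls lay at 8.51 to 8.58, 7.56 to 7.59 and 9.25 to 9.40. Ift20 was instead higher in mutant 3, at 12.22 against 11.63 and 11.62.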
